A study of Mus musculus with 21 samples.

Results

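Chemokine transcripts were followed in CD31-sorted cells of mouse mammary tumours, for 10 of the 45706 genes in the deposited table: Cxcl9, Cxcl10, Cxcl12, Cx3cl1, Cxcl1, Cxcl2, Cxcl16, Ccl2, Ccl7 and Ccl5. The genes were chosen by symbol as chemokines that vessels of a tumour can make, and each symbol matched 1 row. The tumours grew from the mammary carcinoma line E0771.lmb in adult mice injected with tamoxifen, and were taken on day 14 to 16 after the cells were injected. Wild-type hosts (WT) gave 11 libraries from 9 tumours. Shb iECKO hosts (KO) gave 10 libraries from 8 tumours. They carried Shb flox/flox alleles and Cdh5-CreERt2, a tamoxifen-dependent Cre recombinase under the promoter of the endothelial VE-cadherin gene, which removes the adaptor protein Shb from endothelium. The labels do not say which libraries share a tumour, so p-values measure the spread between libraries, part of which may be technical. The protocol also names a blood-cell deletion (Shb ICKO, with Vav1-cre) and a step that isolates CD45+ cells on magnetic beads before the CD31 sort; no label assigns a library to that line. By the headers of the table, the libraries fell into 4 experiments, with 3 WT and 2 KO in experiment 1, 3 and 4 in experiment 2, 2 and 2 in experiment 3, and 3 and 2 in experiment 4. The labels instead list a KO replicate 3 in experiment 2 and another in experiment 4, whereas 2 columns carry the header of the former, and these are called KO replicates 3a and 3b of experiment 2. Values of 3b were written to 6 decimals, as in experiment 4, and those of 3a to 2, as in the rest of experiments 1 to 3. The column 3b may thus be the KO replicate 3 of experiment 4. Fits and results given by experiment, and each r within experiment 2, rest on placing it by its header.

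Chemokines are small secreted proteins that bind receptors on leukocytes and direct their migration. Endothelium both makes them and displays them on the heparan sulfate of its surface, where rolling leukocytes meet them before they stop and leave the vessel. CXCL9 and CXCL10 attract activated T and NK cells through CXCR3 and are classic targets of interferon, while CXCL1 and CXCL2 attract neutrophils through CXCR2 and are classic targets of NF-kB. CXCL12 retains and guides CXCR4-bearing cells, CX3CL1 and CXCL16 are made as membrane-anchored proteins, CCL2 and CCL7 attract monocytes through CCR2, and CCL5 attracts T cells and monocytes.

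Promoter sequence was at hand for 6 of the 10 genes (Cxcl9, Cxcl10, Cxcl12, Cx3cl1, Cxcl1 and Cxcl2), from RefSeq on GRCm38.p6. Those of the interferon-induced pair and of the NF-kB-induced pair are shown, since these 4 genes lie on chromosome 5 and their levels are compared below, each as the 250 bases before the RefSeq start, 5' to 3' on the strand of the gene. Capitals mark the stretches that match the kB consensus, to which NF-kB factors bind, or the interferon-stimulated response element, written GAAANNGAAA, both searched on both strands.
Cxcl9, chr5:92328080-92328329, minus strand: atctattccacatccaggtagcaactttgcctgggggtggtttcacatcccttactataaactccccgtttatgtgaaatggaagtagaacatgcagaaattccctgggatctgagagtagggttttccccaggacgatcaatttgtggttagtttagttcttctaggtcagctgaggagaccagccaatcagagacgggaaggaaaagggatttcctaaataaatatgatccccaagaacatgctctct
Cxcl10, chr5:92348890-92349139, minus strand: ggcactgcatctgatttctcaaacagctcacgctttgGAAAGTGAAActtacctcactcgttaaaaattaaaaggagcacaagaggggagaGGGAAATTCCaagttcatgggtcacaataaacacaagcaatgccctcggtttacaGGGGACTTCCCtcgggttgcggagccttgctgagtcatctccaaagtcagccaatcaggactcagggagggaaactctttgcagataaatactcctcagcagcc
Cxcl1, chr5:90890995-90891244, plus strand: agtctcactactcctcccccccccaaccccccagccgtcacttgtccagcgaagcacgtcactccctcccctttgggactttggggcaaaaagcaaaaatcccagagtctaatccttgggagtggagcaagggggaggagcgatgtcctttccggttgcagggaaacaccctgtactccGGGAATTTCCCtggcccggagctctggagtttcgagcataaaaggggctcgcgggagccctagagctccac
Cxcl2, chr5:90903649-90903898, plus strand: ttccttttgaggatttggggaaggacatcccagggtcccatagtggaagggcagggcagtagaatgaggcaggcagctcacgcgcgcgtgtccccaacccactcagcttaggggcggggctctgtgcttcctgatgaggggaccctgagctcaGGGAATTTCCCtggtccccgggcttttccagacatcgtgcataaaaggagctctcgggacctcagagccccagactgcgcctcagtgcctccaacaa
Cxcl1 and Cxcl2 each held 1 kB stretch with the same letters, GGGAATTTCCC, which began 71 bases before the start in Cxcl1 and 97 bases before it in Cxcl2. Cxcl10 held 2 kB stretches, beginning 159 and 104 bases before the start, and 1 response element, GAAAGTGAAA, beginning 213 bases before it. Neither motif was found in this window of Cxcl9, Cxcl12 or Cx3cl1. Of 32851 promoters of the same length 7.251% held the kB consensus and 2.977% the response element. The interferon-gamma-activated site, searched as TTCNNNGAA, was in 7.02% of promoters and in 0 of these 6. A match describes letters and not a bound site, and a window without a match may hold sites written in other letters. The stretches did not overlap.

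The sort gave endothelial libraries in most cases, with exceptions that touch several chemokines. Pecam1, which encodes CD31, ran from 95.04 to 1960 TPM in WT (median 1218, n = 11) and from 242 to 1772 TPM in KO (median 1352, n = 10). All levels are in TPM, a measure of reads per gene length with the same total in each library, so different genes can be set side by side. Pecam1 was lowest in both replicates 2 of experiment 4 (WT and KO), followed by WT replicate 1 of experiment 2. WT replicate 2 of experiment 3 stood apart through its summed macrophage and monocyte markers, 5110 TPM, where the other WT libraries ran from 61.9 to 630 TPM and KO from 30.3 to 221 TPM. That library was also highest in summed pan-leukocyte (2904 TPM), fibroblast (587 TPM) and neutrophil (101 TPM) markers. Other WT libraries reached 508, 388 and 15.8 TPM in these lists, and KO libraries 290, 154 and 17.0 TPM. In that library tumour epithelial markers summed to 143 TPM, beside a WT median of 4.6 TPM and a highest WT sum of 272 TPM. Shb, the deleted gene, ran from 17.3 to 74.3 TPM in WT (median 31.8) and from 6.00 to 52.7 TPM in KO (median 13.7), so the genotypes overlapped in it. In bulk samples fewer cells of a type and less RNA per cell cannot be told apart.

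Levels were led by Cxcl9, Cxcl10 and Cxcl12. Cxcl9 averaged 297 ± 176 TPM (SD, n = 21), above 97.4% of the 13503 genes that passed the filter on low values (at least 1 TPM in at least 10 libraries). Cxcl10 averaged 206 ± 119 TPM and Cxcl12 173 ± 95.5 TPM over the same libraries. All 10 genes passed that filter. Ccl2 followed at 48.0 ± 73.2 TPM, with a median of 30.7 TPM, and Cx3cl1 at 32.5 ± 15.7 TPM. Cxcl1 averaged 40.0 ± 36.6 TPM, Cxcl2 18.4 ± 19.6 TPM, Cxcl16 18.1 ± 42.9 TPM, Ccl7 20.8 ± 58.7 TPM and Ccl5 10.2 ± 18.2 TPM. For Ccl2, Cxcl2, Cxcl16, Ccl7 and Ccl5 the SD exceeded the mean, and the file listed 0 in 1 library for Cxcl16, in 5 for Ccl7 and in 6 for Ccl5.

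**Figure D1:**
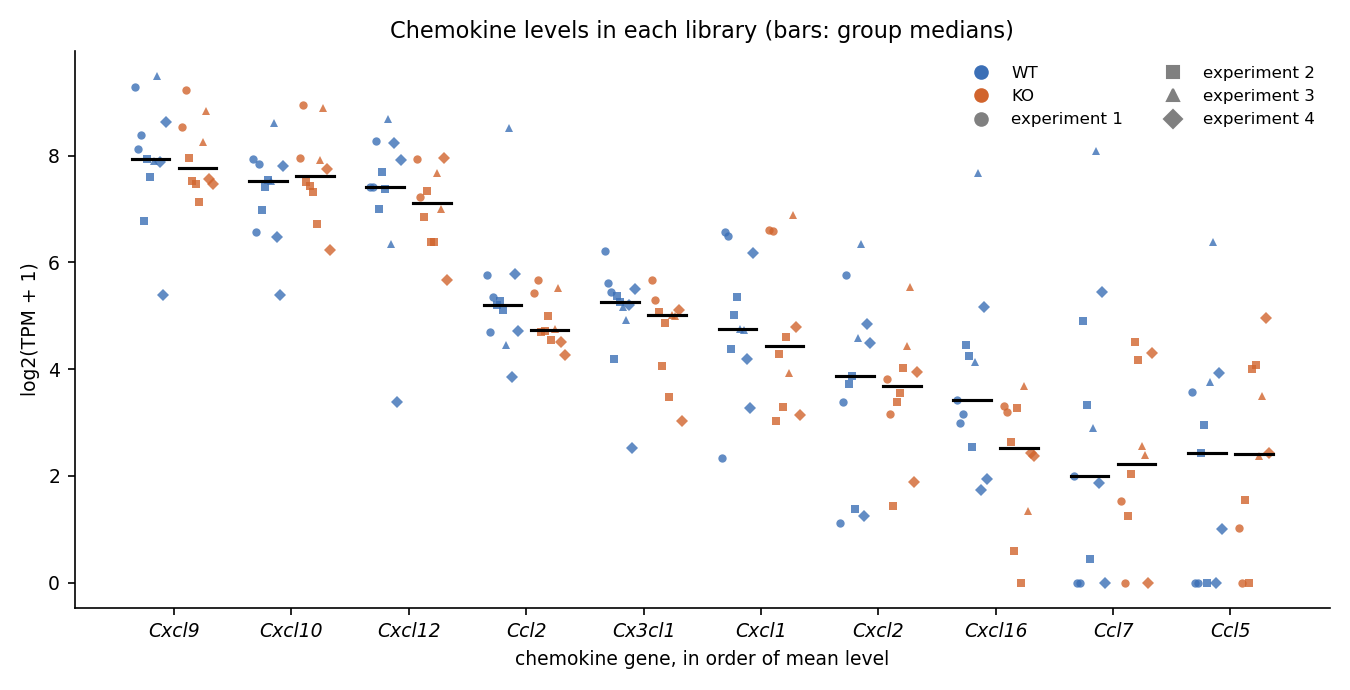
Level of each of the 10 chemokines in each of 21 libraries, as log2(TPM + 1), ordered by mean level; colours give the genotype, symbols the experiment and bars the group medians. WT and KO overlap for all 10 genes, and single WT libraries of experiment 3 (Ccl2, Ccl7, Cxcl16, Ccl5) and experiment 4 (Cxcl12, Cxcl9) lie far from their groups.

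The order of mean log2 levels was Cxcl9, Cxcl10, Cxcl12, Ccl2, Cx3cl1, Cxcl1, Cxcl2, Cxcl16, Ccl7 and Ccl5. Of the 9 pairs of neighbours in that order only Cxcl12 and Ccl2 differed by more than the spread of their difference, with Cxcl12 higher in 19 of 21 libraries and a mean log2 difference of 2.02 ± 1.66 (SD). Cxcl9 exceeded Cxcl10 in 18 of 21 libraries, by 0.51 ± 0.53 (SD) on the log2 scale, just within its spread. The ratio of Cxcl9 to Cxcl10 ran from 0.871 to 2.98 in WT (median 1.46) and from 0.881 to 2.40 in KO (median 1.25). Among the 7 genes from Ccl2 down, no neighbours were set apart.

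The 10 chemokines together took 277 to 2241 TPM of a library, with a median of 775 TPM in WT and 693 TPM in KO. Cxcl9, Cxcl10 and Cxcl12 made up 80.5% of that sum in the median library. Cxcl9 was the highest of the 10 in 15 libraries, Cxcl12 in 4, Cxcl10 in 1 and Ccl2 in 1. In 2 libraries the make-up was different. In WT replicate 2 of experiment 3 the sum was 2241 TPM, the highest of all, and the CC chemokines Ccl2, Ccl7 and Ccl5 took 32.0% of it. In WT replicate 2 of experiment 4, the library lowest in Pecam1, the sum was the lowest, 277 TPM, the CC share was 39.8% and the leading chemokine was Ccl2 at 53.7 TPM. In the other 19 libraries the CC share did not exceed 13.8%.

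**Figure D2:**
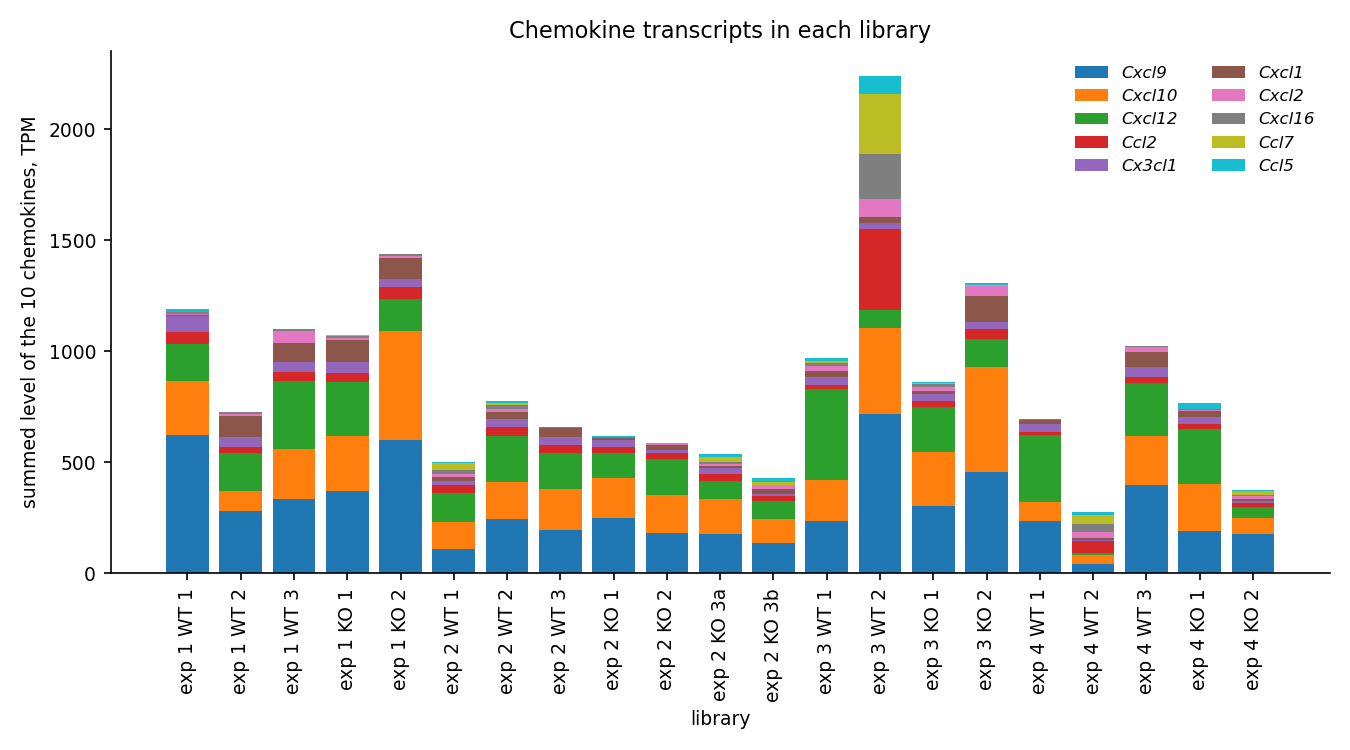
Summed level of the 10 chemokines in each library in TPM, stacked by gene and grouped by experiment and genotype. The tallest bar, WT replicate 2 of experiment 3, reaches 2241 TPM and holds wide bands of Ccl2, Ccl7 and Cxcl16; the shortest, WT replicate 2 of experiment 4, reaches 277 TPM.

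Deletion of Shb was compared with wild type to ask which chemokine transcripts of tumour vessels depend on this adaptor. None of the 10 passed in limma at an adjusted p under 0.05 with experiment as a term, where 1 of 13503 genes did (0.00741%). At an unadjusted p under 0.05 1 of the 10 was lower in KO, Cxcl16, and 0 were higher, beside 4.93% of all genes on the lower side and 0.948% on the higher. WT and KO levels overlapped for all 10. The log2 difference was above 0 for 3 genes and below 0 for 7, with a median of -0.19. Over all genes the median was -0.11 and 64.0% of genes lay below 0, and relative to that median 4 of the 10 chemokines lay above and 6 below. With libraries shifted to a common median the median of all genes was -0.006.

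**Figure D3:**
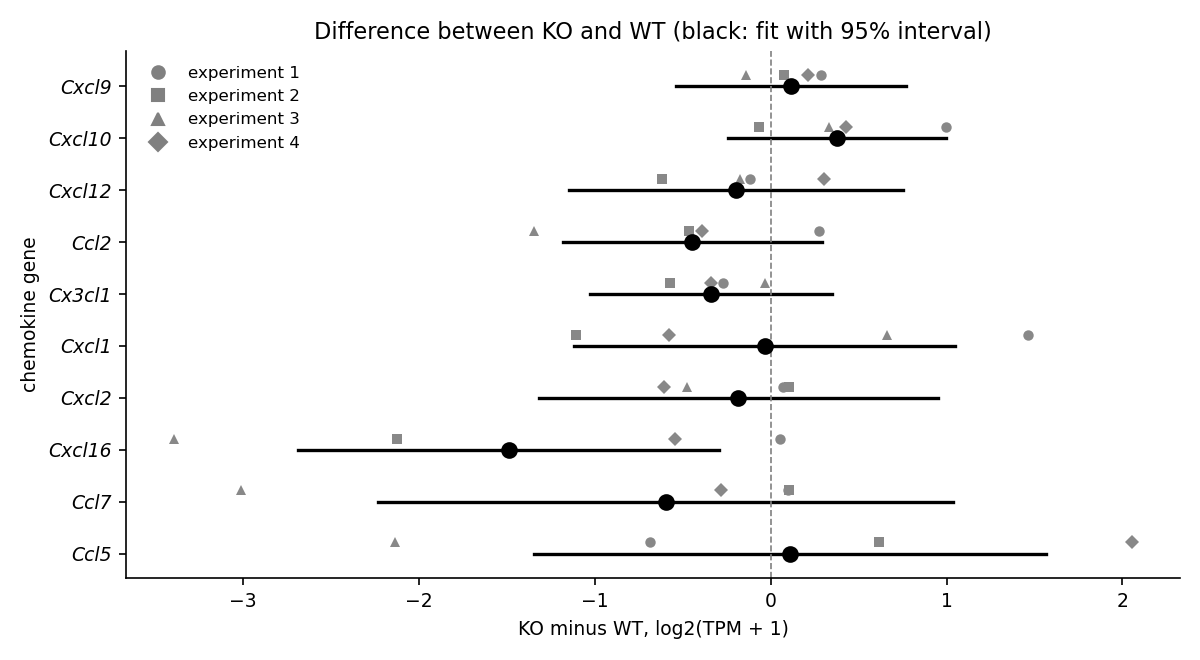
KO minus WT on the log2(TPM + 1) scale for each chemokine; black points and bars give the limma estimate with its 95% interval and grey symbols the difference within each experiment. The interval of Cxcl16 (-2.69 to -0.29) lies below 0 and the other 9 include 0; within-experiment differences of Cxcl16, Ccl7 and Ccl5 spread over more than those of Cxcl9 or Cx3cl1.

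Cxcl9 and Cxcl10, the CXCR3 ligands, lie next to each other on the minus strand of chromosome 5, Cxcl9 from 92321347 to 92328079 and Cxcl10 from 92346638 to 92348889 (GRCm38). Cxcl9 ran from 40.96 to 717 TPM in WT (median 243, n = 11) and from 138 to 600 TPM in KO (median 218, n = 10). The lowest and the highest library were both WT, and every KO library lay between them. On log2(TPM + 1), the scale of all differences here, KO minus WT was 0.12 (SE 0.32, 95% interval -0.53 to 0.77, limma adjusted p = 0.976), and the two-sided exact permutation p within experiments was 0.756. Cxcl10 ran from 40.81 to 389 TPM in WT (median 182) and from 73.6 to 490 TPM in KO (median 197). The highest values were in KO libraries, KO replicate 2 of experiment 1 at 490 TPM and KO replicate 2 of experiment 3 at 471 TPM, and the other KO libraries lay within the WT range. Its log2 difference was 0.38 (SE 0.30, 95% interval -0.24 to 0.99, limma adjusted p = 0.879, exact permutation p = 0.252), and the values by experiment were 1.00, -0.067, 0.33 and 0.43.

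The levels of these CXCR3 ligands differed between experiments in the fit of all libraries, by calls that depended on the scaling and on single libraries. Cxcl9 averaged 441 ± 159 TPM in experiment 1 (SD, n = 5), 184 ± 50.9 TPM in experiment 2 (SD, n = 7), 429 ± 213 TPM in experiment 3 (SD, n = 4) and 208 ± 128 TPM in experiment 4 (SD, n = 5). Experiments 1 and 3 were high and experiments 2 and 4 low, and the lowest library of experiment 1, at 278 TPM, lay above every library of experiment 2, whose highest was 248 TPM. Cxcl10 averaged 261 ± 143 TPM, 156 ± 30.3 TPM, 320 ± 133 TPM and 128 ± 84.4 TPM in experiments 1 to 4, with the same high and low experiments but overlapping ranges. In the limma F test between experiments at fixed genotype Cxcl9 had an adjusted p = 0.0330 and Cxcl10 an adjusted p = 0.0483. These were 2 of the 10 chemokines (20%), where 29.1% of all genes passed. Both calls were close to the threshold: with 1 library left out Cxcl9 passed in 16 of 21 fits and Cxcl10 in 4 of 21. The libraries whose absence took Cxcl9 past the threshold were WT replicate 1 and KO replicate 2 of experiment 1, both replicates 2 of experiment 3 and KO replicate 2 of experiment 4 (limma adjusted p up to 0.0653). Among these fits Cxcl10 passed when WT replicate 2 of experiment 1, WT replicate 1 of experiment 3, KO replicate 1 of experiment 4 or WT replicate 3 of that experiment was absent. Its limma adjusted p reached 0.113 in the absence of KO replicate 2 of experiment 4. On a common median neither passed (limma adjusted p = 0.0777 for Cxcl9 and 0.124 for Cxcl10). Cxcl9 kept its call in 8 and Cxcl10 in 3 of 17 other alternatives.

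**Figure D4:**
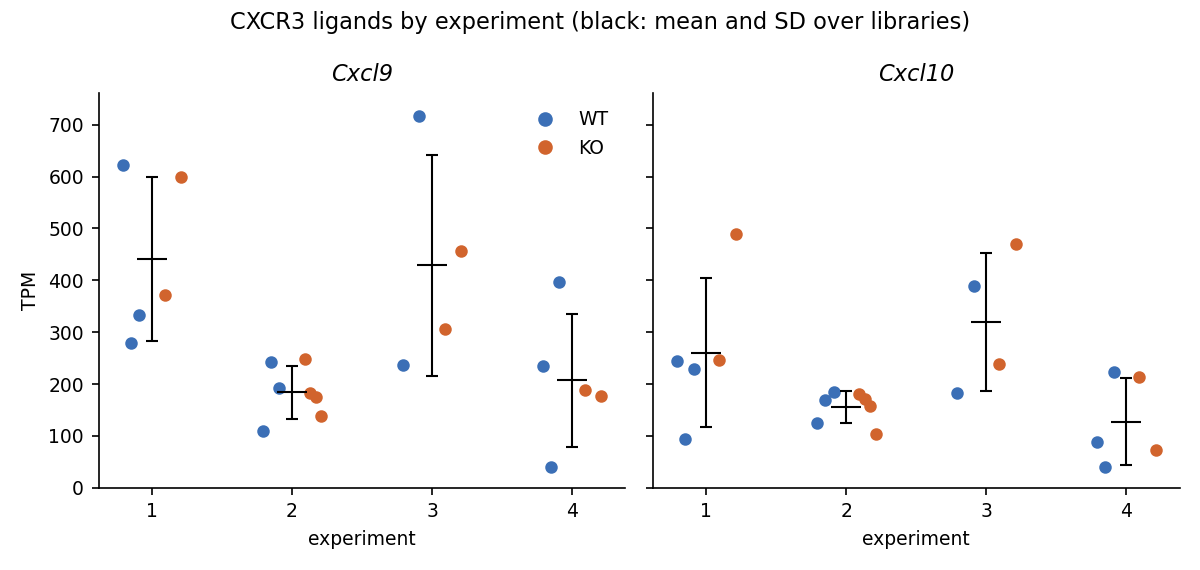
Levels of Cxcl9 and Cxcl10 in TPM in each library by experiment, coloured by genotype; black bars give the mean and SD over the libraries of an experiment. Experiments 1 and 3 have the higher means for both genes (441 and 429 TPM for Cxcl9) and experiments 2 and 4 the lower (184 and 208 TPM).

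Cxcl9 and Cxcl10 varied together from library to library. With experiment means removed, their log2 levels had a Pearson r of 0.775 and a Spearman rho of 0.784 over 21 libraries (permutation adjusted p = 0.00697 and 0.0129, over 155 relations). Without the 2 libraries farthest from the median of Cxcl9 r was 0.642, and within experiment 2 it was 0.794 (n = 7). This was the only one of the 45 pairs of the 10 chemokines that passed by both measures. Values within a library share its scaling, which ties them to each other. Cxcl9 with Cx3cl1 passed by Pearson's r alone (r = 0.669, permutation adjusted p = 0.0398), and r was 0.363 without the 2 libraries farthest from the median of Cxcl9. It was 0.729 within experiment 2 (n = 7) and 0.610 without the 3 libraries lowest in Pecam1 and WT replicate 2 of experiment 3. Ccl2 with Cxcl16 passed by rho alone (rho = 0.736, permutation adjusted p = 0.0236), with an r of 0.531 without WT replicate 2 of experiment 3.

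Cxcl12, the ligand of CXCR4 and of the scavenger receptor ACKR3, spans 117168535 to 117181367 of chromosome 6, plus strand. It ran from 9.40 to 410 TPM in WT (median 170, n = 11) and from 49.9 to 247 TPM in KO (median 137, n = 10). The lowest library was WT replicate 2 of experiment 4 and the lowest in KO was KO replicate 2 of experiment 4, the libraries that were also lowest in Pecam1. The log2 difference was -0.20 (SE 0.46, 95% interval -1.15 to 0.75, limma adjusted p = 0.976). Without the 3 libraries lowest in Pecam1 it was -0.35 (SE 0.27, limma adjusted p = 0.999), and without WT replicate 2 of experiment 3 as well it was -0.56 (SE 0.23, limma adjusted p = 1.00).

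Cx3cl1, or fractalkine, is a membrane-anchored chemokine that catches CX3CR1-bearing monocytes and lymphocytes and is shed by the proteases ADAM10 and ADAM17. It spans 94772009 to 94782427 of chromosome 8, plus strand, and ran from 4.75 to 72.7 TPM in WT (median 37.3, n = 11) and from 7.19 to 49.5 TPM in KO (median 31.1, n = 10). KO lay below WT on average in 4 of 4 experiments, with log2 differences of -0.27, -0.57, -0.033 and -0.34, and the groups overlapped. The fitted log2 difference was -0.34 (SE 0.33, 95% interval -1.03 to 0.35, limma adjusted p = 0.911, exact permutation p = 0.346). Leaving out WT replicate 2 of experiment 4, at 4.75 TPM, moved it to -0.53 (SE 0.28, limma adjusted p = 0.982).

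Cxcl12 and Cx3cl1 followed the endothelial markers. With experiment means removed, Cxcl12 had r = 0.896 and rho = 0.813 with the mean of 18 pan-endothelial markers over 21 libraries (permutation adjusted p = 0.0232 and 0.0236). Without the 3 libraries lowest in Pecam1 and WT replicate 2 of experiment 3 r was 0.794. Cx3cl1 had r = 0.837 and rho = 0.795 with the same list (permutation adjusted p = 0.0495 and 0.0404), and r = 0.727 without those 4 libraries. Within experiment 2 the r were 0.606 and 0.531 (n = 7), and the other experiments held too few libraries for one. With the 2 libraries farthest from the median of the list left out r was 0.853 for Cxcl12 and 0.765 for Cx3cl1. Cxcl9 and Cxcl10 had r = 0.678 and 0.608 with the same list, which did not pass (permutation adjusted p = 0.134 and 0.137). Without the 2 libraries farthest from the median of the list these r were 0.315 and 0.438. Within experiment 2 they were 0.845 and 0.823 (n = 7), above those of Cxcl12 and Cx3cl1. The summed endothelial markers ran from 699 to 14562 TPM in WT and from 2063 to 13607 TPM in KO. None of the 18 was at 0 in every library. Cxcl12 also passed by rho alone with pericyte and smooth muscle markers (rho = 0.665, permutation adjusted p = 0.0236; r = 0.540). Within experiment 2 its r with that list was 0.843 and with dendritic cell markers 0.831 (n = 7), above the value for endothelial markers. For Cx3cl1 r within experiment 2 was 0.787 with T and NK cell markers and 0.618 with dendritic cell markers, also above its endothelial value. Of the 10 T and NK cell markers 9 had a median under 1 TPM, as did 5 of the 7 dendritic cell markers.

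**Figure D5:**
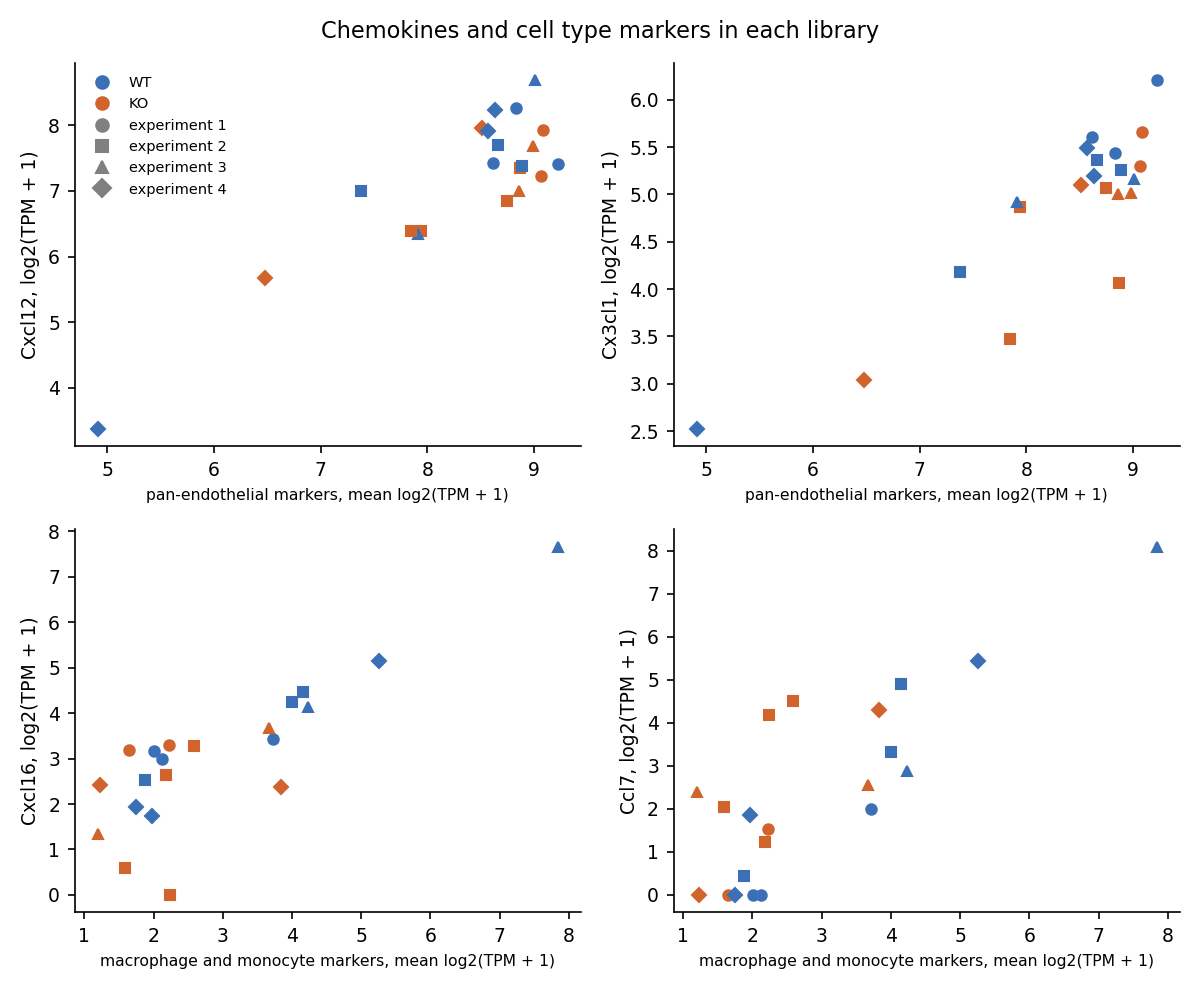
Level of Cxcl12 and Cx3cl1 against the mean of pan-endothelial markers (top) and of Cxcl16 and Ccl7 against the mean of macrophage and monocyte markers (bottom), 1 point per library, all as log2(TPM + 1). Each gene is higher where its list is higher; WT replicate 2 of experiment 4 is the lowest point of both upper panels and WT replicate 2 of experiment 3 the highest of both lower ones.

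Cxcl1 and Cxcl2, ligands of the neutrophil receptor CXCR2, lie close together on the plus strand of chromosome 5, Cxcl1 from 90891241 to 90893115 and Cxcl2 from 90903871 to 90905938. Cxcl1 ran from 4.06 to 94.1 TPM in WT (median 26.1, n = 11) and from 7.19 to 118 TPM in KO (median 20.8, n = 10). Experiment 1 held 4 libraries between 88.8 and 96.1 TPM, 2 of each genotype, and 1 WT library at 4.06 TPM, the lowest of all. The log2 difference of Cxcl1 was -0.034 (SE 0.52, 95% interval -1.11 to 1.05, limma adjusted p = 0.996). Its sign turned between experiments, with differences of 1.46, -1.11, 0.66 and -0.58, and it turned above 0 on a common median (0.074), after quantile normalization (0.032) and with rescaled TPM (0.012). The limma test of a different KO effect between experiments gave an unadjusted p = 0.294 for Cxcl1, and 0.198 was the lowest such p among the 10 chemokines, where 0 of 13503 genes passed adjusted and 518 had an unadjusted p under 0.05.

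Cxcl2 ran from 1.17 to 80.03 TPM in WT (median 13.6, n = 11) and from 1.69 to 45.4 TPM in KO (median 11.9, n = 10). The highest library of each genotype came from experiment 3, and the groups overlapped over most of their range. Its log2 difference was -0.18 (SE 0.55, 95% interval -1.32 to 0.95, limma adjusted p = 0.978). The pair shared a promoter stretch, and their levels over 21 libraries with experiment means removed had r = 0.362 and rho = 0.191 (permutation adjusted p = 0.327 and 0.598). In WT replicate 3 of experiment 2 Cxcl1 was at 39.7 TPM and Cxcl2 at 1.59 TPM. The reverse held for WT replicate 2 of experiment 3, with Cxcl1 at 25.5 TPM and Cxcl2 at 80.03 TPM.

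Cxcl16, a membrane-anchored chemokine that attracts CXCR6-bearing lymphocytes and also binds oxidized lipoprotein, spans 70453983 to 70459984 of chromosome 11, minus strand. In WT it stood at 9.74, 6.91 and 7.96 TPM in experiment 1, at 21.0, 18.0 and 4.78 TPM in experiment 2, at 16.5 and 202 TPM in experiment 3, and at 2.31, 34.7 and 2.84 TPM in experiment 4. In KO it stood at 8.88 and 8.12 TPM in experiment 1, at 5.19, 0.50, 8.66 and 0 TPM in experiment 2, at 11.9 and 1.52 TPM in experiment 3, and at 4.36 and 4.19 TPM in experiment 4. WT libraries held the 5 highest values and KO the 3 lowest, with wide overlap between them. The WT mean was 29.7 ± 58.0 TPM (SD, n = 11), or 12.5 ± 10.1 TPM without WT replicate 2 of experiment 3, and the KO mean was 5.33 ± 3.98 TPM (SD, n = 10).

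The log2 difference of Cxcl16 was -1.49 (SE 0.58, 95% interval -2.69 to -0.29), with an unadjusted p = 0.0170 and an adjusted p = 0.820 in limma. The two-sided exact permutation p within experiments was 0.0345, for 1 of 10 genes tested in this way. The difference was 0.056, -2.12, -3.39 and -0.54 in experiments 1 to 4, the furthest from 0 being those of experiments 2 and 3, and without experiment 2 or experiment 3 the unadjusted limma p was 0.111 and 0.0865. Without WT replicate 2 of experiment 3 the difference was -1.11 (SE 0.53), and without the 3 libraries lowest in Pecam1 as well it was -0.77 (SE 0.54, limma adjusted p = 1.00).

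Macrophage and leukocyte markers moved with Cxcl16. The mean of 12 macrophage and monocyte markers differed between KO and WT by -0.68, -1.20, -3.61 and -0.46 in experiments 1 to 4 on the log2 scale, and all 12 markers were lower in KO, 0 of them called. The summed level of 10 pan-leukocyte markers ran from 111 to 2904 TPM in WT and from 94.8 to 290 TPM in KO, and all 10 were lower in KO, again with 0 called. No marker of either list was at 0 in every library. With experiment means removed Cxcl16 had r = 0.856 and rho = 0.775 with the macrophage list (permutation adjusted p = 0.00517 and 0.0129) and r = 0.839 and rho = 0.670 with the leukocyte list (permutation adjusted p = 0.00517 and 0.0236). Without WT replicate 2 of experiment 3 these r were 0.796 and 0.772, and within experiment 2 they were 0.791 and 0.733 (n = 7). Genotype was not removed, so the shared difference between KO and WT enters each r. Cxcl16 also passed with dendritic cell markers (r = 0.779, rho = 0.684, permutation adjusted p = 0.0252 and 0.0296), whose summed level overlapped between WT (141 to 753 TPM) and KO (123 to 692 TPM). Of these 7 markers 5 had a median under 1 TPM, and 3 passed the filter on low values. The highest was Fscn1, at 345 ± 158 TPM in WT and 321 ± 177 TPM in KO. Fibroblast markers, 5 of 5 tested lower in KO with 0 called, summed to 29.0 to 587 TPM in WT and 10.2 to 154 TPM in KO, and passed with Cxcl16 by r alone (r = 0.737, permutation adjusted p = 0.0398). Tumour epithelial markers, 7 of 8 with a median under 1 TPM, passed with it by rho alone (rho = 0.704, permutation adjusted p = 0.0404), with r = 0.724 within experiment 2 (n = 7). The part of these cells in the difference of Cxcl16 between KO and WT was not tested.

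Ccl2, Ccl7 and Ccl5 lie on chromosome 11, Ccl2 from 82035571 to 82037453 and Ccl7 from 82045712 to 82047525 on the plus strand, and Ccl5 from 83525778 to 83530518 on the minus strand. Ccl2, the main ligand of the monocyte receptor CCR2, ran from 13.4 to 363 TPM in WT (median 35.9, n = 11) and from 18.2 to 49.8 TPM in KO (median 25.6, n = 10). The KO range lay inside that of WT, whose next highest library was at 53.7 TPM. The log2 difference was -0.45 (SE 0.36, 95% interval -1.18 to 0.29, limma adjusted p = 0.881), and with that highest library, WT replicate 2 of experiment 3, left out it was -0.10 (SE 0.24, limma adjusted p = 0.997). The 10 other WT libraries averaged 33.9 ± 13.2 TPM and the KO libraries 30.6 ± 11.0 TPM. With macrophage and monocyte markers Ccl2 had r = 0.668, and 0.243 without the 2 libraries farthest from the median of the list, and it passed with no marker list.

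Ccl7, another CCR2 ligand, ran from 0 to 272 TPM in WT (median 2.97, n = 11). WT replicate 2 of experiment 3 held the highest value and WT replicate 2 of experiment 4 the next, 42.3 TPM, while the other WT libraries did not exceed 28.8 TPM. In KO it ran from 0 to 21.7 TPM (median 3.69, n = 10), and the highest were KO replicates 3a and 3b of experiment 2 and KO replicate 2 of experiment 4. The log2 difference was -0.60 (SE 0.79, 95% interval -2.23 to 1.04, limma adjusted p = 0.935), and -0.065 (SE 0.71, limma adjusted p = 1.00) with the 272 TPM library left out. Ccl7 went with macrophage and monocyte markers (r = 0.843, rho = 0.812, permutation adjusted p = 0.00517 and 0.0129) and with tumour epithelial markers (r = 0.784, rho = 0.773, permutation adjusted p = 0.0464 and 0.0236). With endothelial markers it ran the opposite way (r = -0.78, rho = -0.78, permutation adjusted p = 0.0143 and 0.0236). Without the 4 libraries named above these r were 0.606, 0.644 and -0.60, and within experiment 2 they were 0.622, 0.599 and -0.89 (n = 7). Tumour epithelial markers summed to 1.58 to 272 TPM in WT and 0 to 140 TPM in KO. Of these 8 markers 7 had a median under 1 TPM, and 1 passed the filter on low values. The highest was Krt8, at 46.0 ± 82.6 TPM in WT and 11.2 ± 21.5 TPM in KO. Across libraries Cxcl12 and Cx3cl1 thus rose with the endothelial list, and Ccl7 fell as it rose. Which cells made these transcripts was not tested. Cxcl16 passed with leukocyte lists and had r = -0.50 with the endothelial list, which did not pass.

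Ccl5, made in quantity by T cells and platelets, ran from 0 to 82.3 TPM in WT (median 4.36, n = 11) and from 0 to 30.1 TPM in KO (median 4.28, n = 10). It was listed at 0 in 4 WT and 2 KO libraries. The log2 difference was 0.11 (SE 0.70, 95% interval -1.35 to 1.57, limma adjusted p = 0.989), and the values by experiment were -0.68, 0.61, -2.14 and 2.05. Its sign rested on single libraries, as it was -0.28 in the absence of KO replicate 1 of experiment 4 and 0.45 in that of WT replicate 2 of experiment 3. No relation of Ccl5, Cxcl9 or Cxcl10 with a marker list passed by both measures.

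Genes whose levels followed each chemokine most closely over the 21 libraries, by Pearson's r with experiment means removed, are given as a description. For Cxcl9 they were Serpina3f (r = 0.884), Fn1 (0.853) and Gbp7 (0.845), and for Cxcl10 they were Herc6 (0.839), Irf7 (0.837) and Susd6 (0.819). The closest to Cxcl12 were Sema6a (0.966), Cd36 (0.958) and Sema3g (0.956), and to Cx3cl1 Zfp422 (0.908), Cxx1a (0.907) and Ppm1f (0.903). Cxcl1 was closest to Ccrn4l (0.904), Atf3 (0.899) and Zfp36 (0.893), and Cxcl2, with lower values, to Speg (0.801), Clpb (0.786) and Arih2 (0.783). Cxcl16 was closest to Ctsz (0.911), C1qc (0.899) and Cd63 (0.884), Ccl7 to Nxf3 (0.907), Spp1 (0.904) and Gp49a (0.903), and Ccl2 to Cd68 (0.867), Cyth4 (0.858) and Rap2b (0.848). The closest to Ccl5 were Soat1 (0.795), Tmem192 (0.743) and Narfl (0.742). The value for Ccl2 with Cd68 fell to 0.723 without WT replicate 2 of experiment 3.

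Of 28 other chemokine genes 10 passed the filter, where 13503 of the 45706 genes in the deposited table did, and 0 were called between KO and WT. Their log2 differences were above 0 for 1 (Cxcl11) and below 0 for 9, with a median of -0.93, and 2 had an unadjusted p under 0.05. The highest by mean log2 level were Ccl8, Ccl21a, Ccl6 and Ccl25. Ccl8, a monocyte-attracting chemokine of macrophages, had means of 84.4 ± 195 TPM in WT and 6.61 ± 10.1 TPM in KO, with 668 TPM in WT replicate 2 of experiment 3. Its log2 difference was -2.58 (SE 0.96, limma adjusted p = 0.820). Ccl6 stood at 376 TPM in that library, and differed by -2.20 (SE 0.73, limma adjusted p = 0.820). Cxcl11, the other CXCR3 ligand, averaged 5.08 ± 4.17 TPM in WT and 4.94 ± 2.58 TPM in KO, far under Cxcl9 and Cxcl10. Ccl1, Ccl20, Ccl26 and Cxcl15 were listed at 0 in all 21 libraries.

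Among 18 chemokine receptors 3 passed the filter. Cxcr4, the receptor of CXCL12, averaged 148 ± 88.4 TPM in the 11 WT and 138 ± 62.0 TPM in the 10 KO libraries; KO minus WT was 0.06 (SE 0.32, limma adjusted p = 0.989). Ccr2, the monocyte receptor of CCL2 and CCL7, averaged 8.38 ± 16.8 TPM in WT and 3.21 ± 3.49 TPM in KO. Its highest library was WT replicate 2 of experiment 3, at 57.4 TPM, and KO minus WT was -0.51 (SE 0.58, limma adjusted p = 0.925). Cxcr3, Cxcr6 and Cx3cr1, the receptors of CXCL9, CXCL16 and CX3CL1, did not pass, and their medians were 0 TPM.

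Atypical receptors, which bind chemokines without signalling for migration, were present, with 4 of 5 tested, 0 called between KO and WT and all 4 differences below 0. Ackr1, the chemokine-transporting receptor of venules, had means of 90.1 ± 64.9 TPM in WT and 62.5 ± 43.0 TPM in KO. Ackr3, which scavenges CXCL12, averaged 45.6 ± 12.9 and 37.7 ± 17.8 TPM. Between experiments Ackr1 (limma adjusted p = 0.0433) and Ackr2 (limma adjusted p = 0.0116) differed, and Ackr1 averaged 141, 45.4, 98.1 and 40.3 TPM in experiments 1 to 4.

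Adam10, a sheddase of CX3CL1 and CXCL16, averaged 188 ± 66.2 TPM in WT and 207 ± 88.1 TPM in KO, and Adam17 60.9 ± 11.5 and 54.5 ± 15.0 TPM. Of 6 proteases 4 were tested, 0 were called between KO and WT and 4 lay below 0, Mmp2 with the smallest unadjusted p (log2 difference -1.20, SE 0.43, limma adjusted p = 0.820). Of 17 heparan sulfate carriers and enzymes 15 were tested, with 3 above 0, 12 below 0 and 0 called. Syndecan 3 (Sdc3), the highest of them by mean log2 level, averaged 175 ± 120 TPM in WT and 163 ± 82.2 TPM in KO. The carriers Sdc1, Sdc4 and Gpc1 had unadjusted p under 0.05 on the lower side, with log2 differences of -1.31 (SE 0.51), -1.57 (SE 0.67) and -1.62 (SE 0.72) and limma adjusted p = 0.820 for each. In WT replicate 2 of experiment 3 they stood at 86.4, 168 and 45.9 TPM, the highest of all libraries for Sdc4. Sdc1 and Gpc1 were highest in other libraries, at 142 and 75.3 TPM. The leukocyte and fibroblast markers that were lower in KO are given above, as are the sums of tumour epithelial markers. The part of any of these cells in these differences was not tested.

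Genes of the inducing pathways also showed no call between KO and WT. Of 15 NF-kB genes 8 lay above 0 and 7 below, with a median log2 difference of 0.009, and of 13 interferon genes 9 lay above and 4 below, with a median of 0.16. Nfkbia, the inhibitor that NF-kB itself induces, had means of 331 ± 124 TPM in WT and 367 ± 179 TPM in KO, and Irf1, a factor induced by interferon-gamma, 487 ± 265 and 602 ± 297 TPM. Between experiments 10 of the 15 NF-kB genes and 6 of the 13 interferon genes passed, beside 29.1% of all genes. Irf1 averaged 675, 742, 400.0 and 242 TPM in experiments 1 to 4 (limma adjusted p = 0.00766). Experiment 2, low in Cxcl9 and Cxcl10, was thus the highest in Irf1.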

How the data were processed

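Total RNA of CD31-sorted cells was sequenced from 21 libraries, after ribosomal depletion, from 30 ng of RNA in paired reads of 150 bases, per the labels' protocols. The authors deposited TPM per Ensembl gene, aligned to GRCm38 per the submitters' processing notes; the aligner and counter: not given in the sources used here. Depth is unknown from TPM, so no counting interval is given, and a few transcripts that take a large share lower all others: the 20 highest genes took 19.7% to 71.1% of a library. Genes listed at 0 may be failed estimates. Strand and coordinates came from the GENCODE annotation of GRCm38. Of the columns, 2 share a header naming KO replicate 3 of experiment 2; they hold different values, are called 3a and 3b, and both entered as KO of experiment 2.

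The 13503 genes that reached 1 TPM or more in 10 or more libraries were tested as log2(TPM + 1) with limma 3.58.1 (statmod 1.5.0, R 4.3.3), with experiment as a term, a trended robust prior and Benjamini-Hochberg adjustment over all genes tested; fold changes on this scale understate those of low genes. The script was tested on simulated data. Exact permutation tests ran over 21000 arrangements of genotype within experiments. Correlations used log2 values with experiment means removed and genotype left in. Their p, which the fixed design did not list, came from 100000 permutations within experiments, adjusted over 155 relations. The members, gene lists and tests were chosen with earlier results of these data known. Named genes were the 10 chemokines, list members that passed a test or had a high mean level, Shb, marker genes and the 3 genes most like each chemokine; Cxcl11, Sdc1, Sdc4, Gpc1, Cxcr3, Cxcr6, Cx3cr1 and the genes listed at 0 in all libraries were named after their values were seen. Alternatives covered the pseudocount, filter, scaling, prior, replicate block, placement of 3a and 3b, and leaving out libraries and experiments. Results for some listed genes are not reported here.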

Additional observations from a re-analysis of the deposited data

Results flagged for a closer look

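For each of the 10 chemokines the 10 KO libraries, and separately the 4 KO libraries of experiment 2, were searched for 1 library whose gap to the next, relative to the range of its group, was wider than the 95% limit. This held for 2 of the 10 groups of all KO libraries and for 0 of the 10 groups from experiment 2; chance gives about 1 in 20 groups. Ccl5 stood at 30.1 TPM in KO replicate 1 of experiment 4, and the next KO library was at 15.9 TPM. Cxcl2 stood at 45.4 TPM in KO replicate 2 of experiment 3, and the next KO library was at 20.6 TPM. WT groups of 11 were too large for this rule, and the high values of WT replicate 2 of experiment 3 are therefore not among these.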

How the results depend on the processing

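None of the 10 chemokines passed between KO and WT in any of 40 alternatives. Over all genes 1 passed, and 2 did on a common median or after quantile normalization, 0 with the replicate block and 0 without experiment 1 or without experiment 2; leaving out 1 library each gave 1 to 1. Cxcl16 was below 0 throughout, from -1.96 to -0.77 (limma adjusted p 0.568 to 1.00), with -1.65 to -1.11 on leaving out 1 library.

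Signs turned under some alternatives for 7 genes, and the cause was not tested; Cxcl16, Cxcl10 and Cx3cl1 kept theirs. On a common median Cxcl1 was 0.074, after quantile normalization 0.032 and with rescaled TPM 0.012. Without experiment 2 Cxcl1 was 0.51, Ccl5 -0.14 and Cxcl12 0.013, and without experiment 4 Cxcl1 was 0.13 and Ccl5 -0.49. Without the 3 libraries lowest in Pecam1 Cxcl1 was 0.077 and Cxcl9 -0.14, and without WT replicate 2 of experiment 3 as well Cxcl1 was 0.024, Cxcl9 -0.0028, Ccl7 0.18, Ccl2 0.085 and Cxcl2 0.086. Without the 2 columns of shared header Cxcl1 was 0.049 and Ccl5 -0.37. Leaving out 1 library each gave -0.38 to 0.15 for Cxcl1, -0.081 to 0.25 for Cxcl9, -0.28 to 0.45 for Ccl5, -0.43 to 0.044 for Cxcl2, -0.998 to -0.065 for Ccl7, -0.67 to -0.10 for Ccl2, -0.54 to -0.036 for Cxcl12, 0.24 to 0.50 for Cxcl10 and -0.53 to -0.17 for Cx3cl1.

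Same-numbered WT and KO libraries correlated at -0.20 to 0.36, with 2 of 10 pairs above 0.1, both in experiment 4. Other-numbered pairs ran from -0.36 to 0.22, with 5 of 18 above 0.1. Where a group held 2 libraries their deviations mirrored each other, so this check cannot decide whether replicate numbers pair the libraries. With the replicate block (9 residual degrees of freedom) Cxcl1 was 0.23, Ccl5 -0.19, Cxcl2 0.18 and Cxcl12 0.018.

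Between experiments 3931 genes passed, and 2529 with no filter, 2496 on a common median, 8 without experiment 2, 1723 without experiment 4, 1846 without the 3 libraries lowest in Pecam1, 1441 without WT replicate 2 of experiment 3 as well, 2339 with KO replicate 3a placed in experiment 4, and 2335 to 5012 on leaving out 1 library. Of the chemokines 2 passed, and 1 with a pseudocount of 0.1 or 0.5, a constant prior, 3a in experiment 4, or without experiment 1, 3 or 4. None (0) passed with no filter, on a common median, after quantile normalization, with rescaled TPM, or without experiment 2, the libraries lowest in Pecam1 or the columns of shared header; leaving out 1 library gave 0 to 3. Unknown depth limits Ccl5, Ccl7 and Cxcl16 most, which were listed at 0 in 6, 5 and 1 libraries.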
